A study of Mus musculus with 9 samples.

Results

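The extracellular matrix and its remodelling were followed through 36 genes: collagen chains, laminins and nidogen, matrix glycoproteins and proteoglycans, crosslinking enzymes, matricellular proteins, proteases and their inhibitors, and TGF-β. The members were chosen by symbol, and 36 of 36 were found among the 55416 Ensembl genes of the count table. The tissue was interscapular brown fat of C57BL/6J mice aged 8 to 10 weeks that expressed Cas9. The labels do not name the promoter that drives Cas9. The animals had been injected into the fat pad with an AAV8 vector (an adeno-associated virus) carrying either a control guide RNA (5 labelled samples) or a guide RNA against Ucp1, the uncoupling protein of brown fat mitochondria (4 labelled samples), and were housed at 22 °C for 14 days. All the animals therefore shared Cas9, the injection and the vector, and no uninjected tissue was analysed here.

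The labels do not tie the 9 count columns to the guides. Each column carries the tissue abbreviation and a number that occurs in no label, and the columns are called libraries 1 to 9 here only to name them. No library was given a guide, the guides were not compared, and each value is shown as the lowest, median and highest of the 9 libraries, because these mix both guides. Any part of the spread that came from the guide and any that came from the animal cannot be told apart. Depth was even, at 15460829 to 17909534 counts per library, so that 3 counts corresponded to 0.168 to 0.194 CPM (counts per 1000000 counts of the library). Pairs of libraries correlated at 0.965 to 0.990 (Pearson r of log2 CPM across genes, which are not independent replicates), and none of the 36 pairs was identical.

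Brown adipocytes sit in a fine matrix in which every fat cell and every capillary is wrapped by a basement membrane. That sheet is built from a type IV collagen network and a laminin network, which nidogen links together. Fibrillar collagens (types I, III and V) form the tougher strands of the septa and vessel walls and are made mainly by fibroblast-like stromal cells, whereas type VI collagen forms beaded filaments at the border between both. Matrix turnover is set by secreted and membrane-bound metalloproteinases and their tissue inhibitors, and TGF-β is the best known inducer of matrix genes.

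The upstream sequences of fibrillar collagen genes are shown because the results turn on these genes, whose joint variation over the libraries depended in part on library 9, as given with the correlations. Entries for 23 of the 36 members were found in the RefSeq promoter table (build GRCm38.p6), and the 250 bases before the start site are printed 5′ to 3′ for a type I, a type III and a type V chain. Capitals mark 3 motifs searched on both strands, which are TATAAA for the TATA box, the letters CCAAT for the box of that name and the letters GGGCGG for the GC box, and which do not overlap one another in these windows. Col1a2 lies at chr6:4505368-4505617, Col3a1 at chr1:45311288-45311537 and Col5a1 at chr2:27886175-27886424, each on the plus strand.
Col1a2: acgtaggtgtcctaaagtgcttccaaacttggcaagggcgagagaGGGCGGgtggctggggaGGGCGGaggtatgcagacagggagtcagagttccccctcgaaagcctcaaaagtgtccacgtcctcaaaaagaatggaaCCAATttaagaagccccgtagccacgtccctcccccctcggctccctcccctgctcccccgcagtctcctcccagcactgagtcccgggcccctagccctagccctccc
Col3a1: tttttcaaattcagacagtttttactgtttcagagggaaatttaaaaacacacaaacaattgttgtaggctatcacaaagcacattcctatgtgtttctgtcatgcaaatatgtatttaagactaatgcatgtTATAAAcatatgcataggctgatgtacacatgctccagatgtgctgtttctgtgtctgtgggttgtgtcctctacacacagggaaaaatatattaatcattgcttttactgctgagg
Col5a1: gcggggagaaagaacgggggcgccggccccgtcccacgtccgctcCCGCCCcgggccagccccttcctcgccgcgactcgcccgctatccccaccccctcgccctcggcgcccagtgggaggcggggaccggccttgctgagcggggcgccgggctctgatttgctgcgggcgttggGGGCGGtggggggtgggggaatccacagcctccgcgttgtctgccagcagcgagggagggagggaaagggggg
The Col1a2 window held CCAAT beginning 109 bases before the start and GGGCGG at 205 and 188 bases. The Col3a1 window held TATAAA beginning 117 bases before the start and neither of the other motifs. The Col5a1 window held GGGCGG on the minus strand at 205 bases and on the plus strand at 73 bases, with neither of the others. Among 32851 windows of the same length in the table, 12.4% held TATAAA, 33.9% held CCAAT and 32.7% held GGGCGG, so each of these letters is common and a match is only a description.

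Col4a1 and Col4a2, the type IV collagen chains that assemble together in nearly all basement membranes, lie head to head and are transcribed away from each other. Their annotated starts overlap by 22 bases at chr8:11312805-11312826 of GRCm38.p6, shown on the plus strand, along which Col4a2 is read.
Col4a1 and Col4a2 shared start: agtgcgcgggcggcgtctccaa
The minus strand of the same bases begins the Col4a1 transcript, so the pair starts from one short stretch of DNA.

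Brown fat carried more message for basement membrane collagen than for fibrillar collagen. On the scale of CPM per kilobase of the longest coding transcript, which allows levels of different genes to be set side by side, the median level over the libraries was 47.7 for Col4a1 and 35.8 for Col4a2. It was 15.7 for Col3a1, the type III chain, 11.6 for Col1a1 and 9.35 for Col1a2, the chains of type I collagen. It was 2.16 for Col5a1 and 1.69 for Col5a2, the type V chains among the members, which set fibril diameter. Col5a3, another type V chain, is given with the related matrix genes. The order of type IV over type I was the same in all 9 libraries.

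Sparc headed the 36 genes per kilobase. It encodes a collagen-binding matricellular glycoprotein that is abundant in adipose stroma and vessels, and its median level was 225 CPM per kilobase. Col4a1 came next, followed by Dcn (decorin, a small proteoglycan on fibril surfaces) at 43.6 CPM per kilobase, Col4a2, Timp3 at 30.5 and Postn (periostin) at 29.5. At the other end stood Spp1 (osteopontin) at 0.129, Tnc (tenascin-C) at 0.278, Timp1 at 0.329 and Thbs1 (thrombospondin 1) at 0.401 CPM per kilobase, genes best known from injured and inflamed tissue. Timp1 and Spp1 were the 2 members with a mean under 1 CPM and were not taken into the correlations, which left 34. Timp1 had 2 to 7 counts in the libraries where it was lowest and highest. Spp1 had 0 counts in library 4, where a limit of 3 counts corresponds to 0.175 CPM and the exact Poisson 95% interval reaches 0.216 CPM, both for counting error only, and 9 counts in library 2, its highest.

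**Figure D1:**
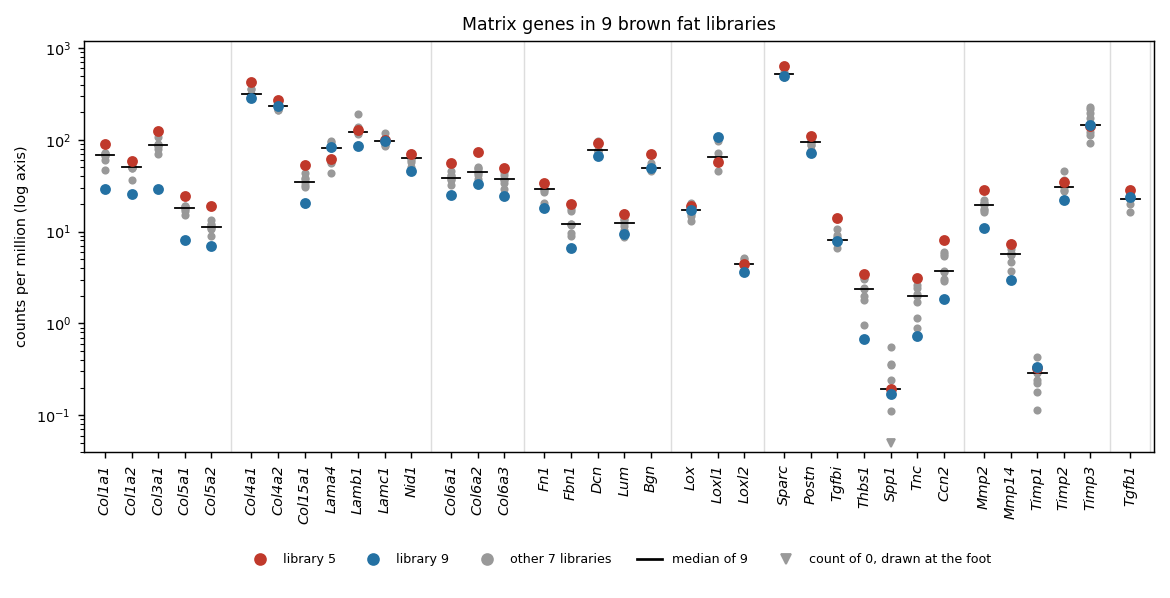
Levels of the 36 matrix genes in CPM (log axis), grouped by role from fibrillar collagens at the left to TGF-beta at the right; each dot is a library and each bar the median of the 9. Library 5 (red) is highest for 22 of the 34 genes with a mean of at least 1 CPM and library 9 (blue) is lowest for 21 of them.

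The fibrillar chains ranged widely, with highest over lowest ratios of 2.28 to 4.32, and of 1.59 to 2.10 without library 9. Col1a1 (ENSMUSG00000001506) ran from 28.8 CPM in library 9 through a median of 68.5 to 90.5 in library 5, a ratio of 3.14 between the ends. Library 4 was next lowest at 47.1 CPM, and the other 6 libraries lay between 60.7 and 71.7. The counting intervals at the ends were far apart, with exact Poisson 95% intervals of 26.4 to 31.4 and 85.8 to 95.4 CPM.

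Col1a2 (ENSMUSG00000029661), the partner chain in type I collagen, ran from 25.7 CPM in library 9 through 50.0 to 58.7 in library 5. Col3a1 (ENSMUSG00000026043) ran from 29.1 through 87.2 to 126 CPM, a ratio of 4.32 and the widest of the 5 fibrillar chains. Its next lowest library, library 4, held 69.5 CPM. Col5a1 ran from 8.01 through 18.1 to 24.4 CPM and Col5a2 from 6.99 through 11.2 to 19.0 CPM. All 5 fibrillar chains were lowest in library 9 and highest in library 5.

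Type I collagen is built from 2 Col1a1 chains for each Col1a2 chain, and the messages did not stand at that proportion. Per kilobase, the ratio of Col1a1 to Col1a2 was 1.01 in library 9, 1.39 in library 5 and 1.21 at the median.

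Of the basement membrane genes, Col4a1, Col4a2, Lama4, Lamb1, Lamc1 and Nid1 had highest over lowest ratios of 1.30 to 2.24 (median 1.52), below the fibrillar range. Without library 9 they had 1.30 to 2.19 (median 1.44), which overlapped the fibrillar range of 1.59 to 2.10 (median 1.81). Col4a1 (ENSMUSG00000031502) ran from 285 CPM in library 9 through 316 to 422 in library 5, a ratio of 1.48. Col4a2 (ENSMUSG00000031503) ran from 210 CPM in library 3 through 231 to 273 in library 5, a ratio of 1.30, the narrowest of the 34 genes. Library 9, which stood apart for the fibrillar chains, held 231 CPM of Col4a2 and was the median library for it. Nid1, nidogen 1, ran from 46.2 CPM in library 9 through 62.6 to 71.7 in library 1. Lamc1, the γ1 chain shared by most laminins, ran from 86.3 CPM in library 2 through 96.9 to 118 in library 6, a ratio of 1.37.

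The other laminin chains moved in their own ways. Lamb1, the β1 chain, ran from 85.3 CPM in library 9 through 121 to 191 in library 6, with the next library at 138. Lama4, the α4 chain found in the basement membranes of vessels and fat cells, ran from 43.7 CPM in library 2 through 81.2 to 95.8 in library 8, and library 5 was not high for it at 61.3 CPM. Col15a1, a collagen of the zone around basement membranes, ran from 19.8 CPM in library 3 through 34.6 to 53.3 in library 5. Its ratio of 2.70 lay inside the fibrillar range over all libraries.

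Within each library the fibrillar chains were set against type IV collagen. The summed CPM of the 5 fibrillar chains divided by that of Col4a1 and Col4a2 was 0.379, 0.433, 0.464, 0.360, 0.459, 0.454, 0.393, 0.454 and 0.191 in libraries 1 to 9. The ratios of 8 libraries lay between 0.360 and 0.464, and library 9 lay below them all. The highest ratio was 2.43 times the lowest with library 9 and 1.29 times without it. The fibrillar sum was 98.6 CPM in library 9 against 182 in the next lowest library, whereas its type IV sum of 516 CPM was inside the range of 500.4 to 694 CPM of all libraries. Per kilobase, the ratio ran from 0.214 through 0.487 to 0.523.

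**Figure D2:**
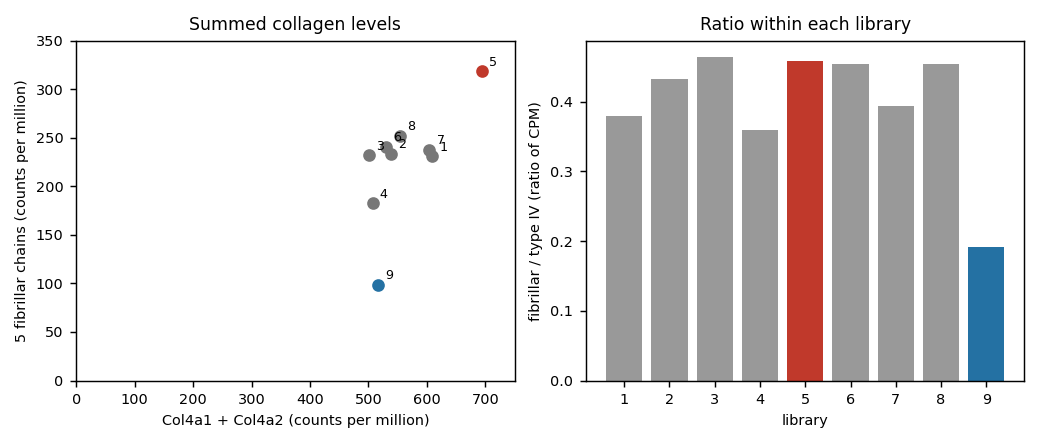
Left, the summed level of 5 fibrillar collagen chains against that of Col4a1 and Col4a2, both in CPM, with each point a numbered library; right, the ratio of these sums in each library. Library 9 has a ratio of 0.191 and the other 8 lie between 0.360 and 0.464.

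The 3 type VI collagen chains had highest over lowest ratios of 2.04 to 2.25, between those of the fibrillar and the type IV chains. Without library 9 they had 1.72 to 1.99, inside the fibrillar range of 1.59 to 2.10. Col6a1 ran from 24.8 CPM through 38.0 to 55.9, Col6a2 from 32.9 through 44.8 to 73.7, and Col6a3 from 24.3 through 37.2 to 49.4. Each was lowest in library 9 and highest in library 5. Their ratio to type IV collagen was 0.159 in library 9, 0.212 at the median and 0.258 in library 5.

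Among the glycoproteins and proteoglycans of the matrix, Fn1 (fibronectin) ran from 18.2 CPM through 28.8 to 33.9 and Fbn1 (fibrillin 1, the backbone of microfibrils) from 6.65 through 11.9 to 19.7, both lowest in library 9 and highest in library 5. Decorin was narrower, at 66.9 through 76.7 to 97.9 CPM. Lum (lumican) ran from 8.71 CPM in library 4 through 12.4 to 16.0 in library 8. Bgn (biglycan) ran from 45.7 CPM in library 8 through 49.8 to 69.3 in library 5, with the next library at 55.2.

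Of the crosslinking enzymes, Lox and Loxl1 were neither lowest in library 9 nor highest in library 5, unlike the fibrillar chains. Loxl1, the lysyl oxidase-like enzyme best known for elastic fibres, was 108 CPM in library 9, its highest, 106 in library 7 and 97.1 in library 8, while the other 6 libraries lay between 46.3 and 71.5. It was the only one of the 34 genes that was highest in library 9. Lox, the lysyl oxidase that initiates crosslinks in collagen and elastin, ran from 13.1 through 17.3 to 20.6 CPM. Loxl2 ran from 3.61 CPM in library 9, as the fibrillar chains did, through 4.49 to 5.14 CPM in library 2. Its exact Poisson 95% intervals overlapped, at 2.78 to 4.61 in the lowest and 4.09 to 6.37 in the highest library.

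Among the matricellular proteins, Sparc stayed within a narrow band, from 489 CPM in library 4 through 518 to 643 in library 5, a ratio of 1.32. Periostin ran from 72.5 CPM in library 9 through 94.6 to 110 in library 5. The scarcer members ranged more widely. Ccn2 (connective tissue growth factor), a classical target of TGF-β and of mechanical signalling, ran from 1.86 through 3.72 to 8.08 CPM. Thbs1 ran from 0.677 through 2.34 to 3.43 CPM, Tnc from 0.733 through 1.97 to 3.10 CPM, and Tgfbi from 6.61 through 8.10 to 13.9 CPM. The ratios of Thbs1 (12 counts in its lowest library) and Tnc (13 counts) rest on few reads.

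Of the metalloproteinases, Mmp2 (gelatinase A) ran from 11.1 CPM in library 9 through 19.2 to 28.1 in library 5. Mmp14, the membrane-bound enzyme that activates it, ran from 2.99 CPM in library 9 through 5.67 to 7.54 in library 6. Timp2 and Timp3, inhibitors of these enzymes, were more abundant per kilobase at the median, whereas Timp1 was scarcer than both enzymes. Timp3, which binds to the matrix, ran from 91.5 CPM in library 7 through 144 to 226 in library 3 and was at its median in library 9. Timp2 ran from 22.1 CPM in library 4 through 30.4 to 45.2 in library 2. Tgfb1 itself ran from 16.3 CPM in library 4 through 22.9 to 28.3 in library 5.

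Over the 34 genes, the highest library was at least 2 times the lowest for 21, against 32.3% of the 12260 genes with a mean of at least 1 CPM. The median ratio was 2.22 for the members and 1.70 over all those genes. At a mean of at least 10 CPM, 16 of 28 members had a 2-fold range, against 14.1% of 7513 genes. The median ratios were then 2.12 and 1.53, and counts at that level without single libraries are not given. Without library 9 the count was 13 of 34, beside 29.5% of all genes, and without library 5 it was 15 of 34, beside 29.3%. For 22 of the 34 members library 5 was the highest, which held for 10.9% of all genes, and for 21 of the 34 library 9 was the lowest, which held for 10.2% of all genes. Of the members, 30 lay above their own median in library 5, beside 38.4% of all genes, and 27 lay below it in library 9, beside 37.5%. The median shift of the members was 0.31 in library 5 and -0.43 in library 9 on the log2(CPM + 1) scale, beside -0.01 and 0.02 for all genes.

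**Figure D3:**
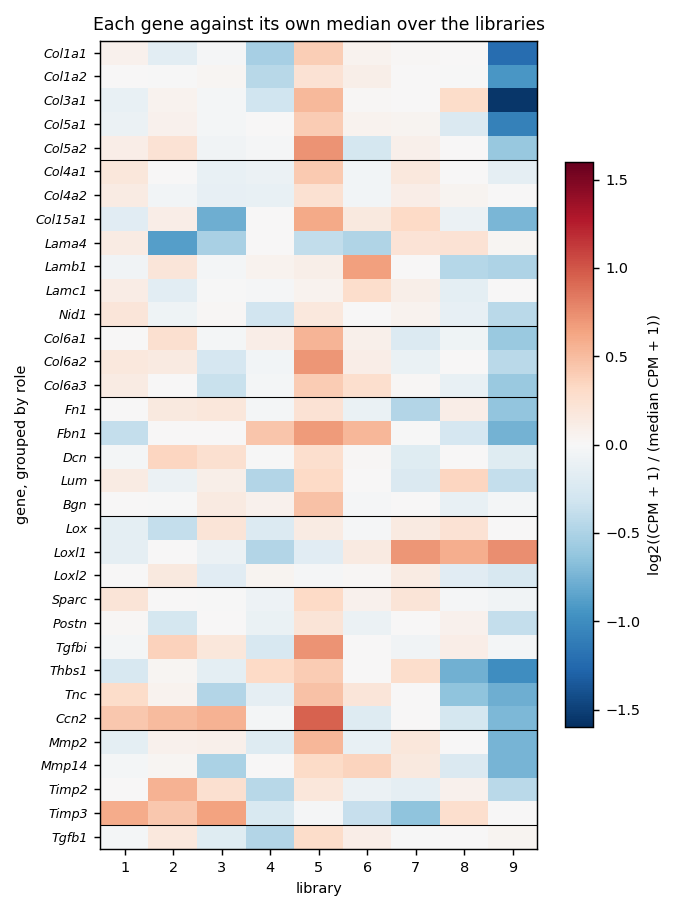
Each of the 34 matrix genes with a mean of at least 1 CPM (rows, grouped by role) in each library (columns), as log2 of its level over its own median, with red above and blue below the median. Library 5 is red for 30 genes and library 9 is blue for 27, while Loxl1 is red in library 9.

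Markers of other cell types also differed between libraries, and the whole lists are given with the range of their summed CPM. Brown adipocyte markers (9 of 9 genes detected, among them Adipoq, Plin1 and Cidea) were plentiful in every library, at 7208 to 10359 CPM, with library 9 highest and library 5 at 7558. Of that list, Fabp4 alone ran from 3364 to 5070 CPM and Elovl3 from 151 to 828 CPM. Skeletal muscle markers (10 of 10) ran from 287 CPM in library 2 to 4598 in library 5, and were 914 in library 9. Mural cell markers (7 of 7) ran from 455 to 915 CPM, highest in library 5 and 518 in library 9. Fibroblast and preadipocyte markers (10 of 10) ran from 605 CPM in library 9 to 929 in library 2, with 861 in library 5. Of this list Gsn alone ran from 454 to 764 CPM, and the sums of libraries 4 and 8 were 611 and 624 CPM. Endothelial markers (9 of 9) ran from 535 to 894 CPM, with 859 in library 5 and 584 in library 9. Macrophage markers (8 of 8) ran from 48.4 to 119 CPM, highest in library 8, with 68.8 in library 5 and 52.7 in library 9. The part of these cell types in the matrix values was not tested, and in whole tissue fewer cells of a type and less RNA per cell cannot be told apart.

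**Figure D4:**
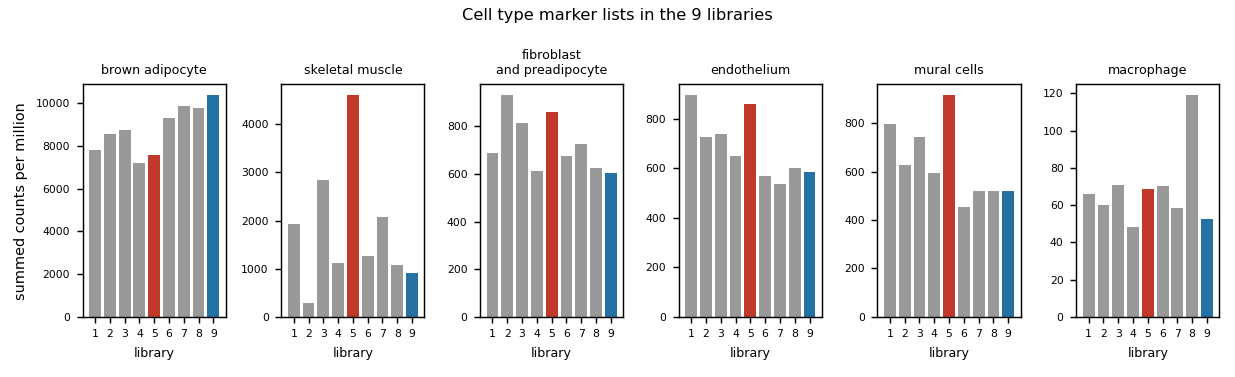
Summed CPM of marker lists for 6 cell types in each library, each panel with its own axis starting at 0. Library 5 (red) has the highest skeletal muscle sum, 4598, and library 9 (blue) has the highest brown adipocyte sum, 10359.

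The joint variation of the 5 fibrillar chains depended on library 9 for the type V chains. Over all libraries, the 10 pairs among them had Pearson r of log2(CPM + 1) from 0.72 to 0.99 with a median of 0.87. Without library 9 they had 0.40 to 0.95 with a median of 0.57, a check chosen after seeing the data. The r with Col1a1 was then 0.46 for Col5a1 and 0.50 for Col5a2, and over all 9 libraries their rho with it was 0.43 (exact permutation p = 0.250) and 0.53 (exact permutation p = 0.148). The 3 pairs of type VI chains had 0.80 to 0.89, and 0.59 to 0.85 without library 9. The 15 pairs among Col4a1, Col4a2, Lama4, Lamb1, Lamc1 and Nid1 ran from -0.60 to 0.91 with a median of 0.21, which was 0.17 without library 9. The difference between these groups of pairs was not tested. Fibrillar chains paired with type IV chains had a median r of 0.58. Over all 561 pairs of the 34 genes the median was 0.47, and 458 pairs were above 0. Without library 5 these were 0.32 and 416, and without library 9 they were 0.34 and 423. No share over pairs of all genes is given beside these counts. These are descriptions over 9 libraries whose values are all shares of the same total.

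**Figure D5:**
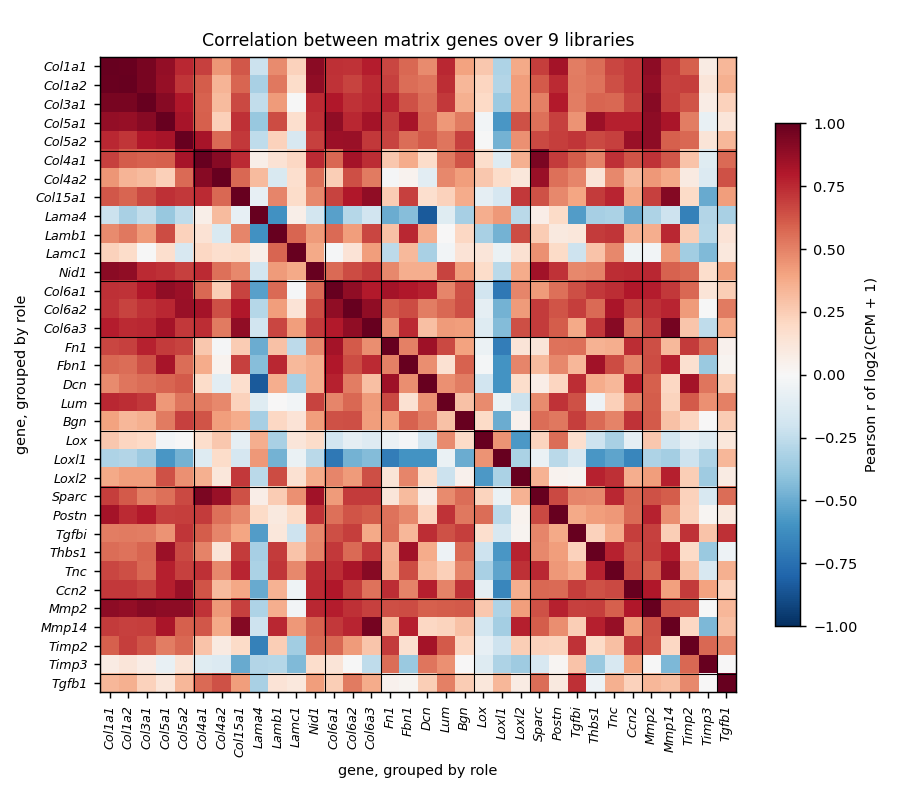
Pearson r between every pair of the 34 matrix genes over the 9 libraries, from -1 (blue) to 1 (red), grouped by role. The fibrillar block at the upper left lies between 0.72 and 0.99 (0.40 to 0.95 without library 9), while Lama4 and Loxl1 form pale or blue stripes through much of the square.

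Each gene of the table was then correlated with Col1a1, as the main fibrillar chain, and with Col4a1, as the main basement membrane chain. P-values came from an exact, two-sided permutation test over all orders of the 9 libraries and were Benjamini-Hochberg adjusted over 12259 genes for each of the 2 anchors; they treat the libraries as exchangeable although both guides are among them. At an adjusted p under 0.05, 0 of 33 members and 0% of all genes were called with either anchor in either direction, and the same held for Spearman's rho. At an unadjusted p under 0.05 and r above 0, 17 of 33 members were found with Col1a1 against 3.67% of all genes, and 11 of 33 with Col4a1 against 3.52% of all genes. The median r of the members was 0.67 with Col1a1 and 0.60 with Col4a1, and over all genes it was -0.02 and -0.01. Without library 5 the median with Col4a1 was 0.36 for the members and 0.084 for all genes, and without library 9 the median with Col1a1 was 0.46 and 0.13.

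The partner chain Col1a2 was the member closest to Col1a1. Its Pearson r was 0.99 (exact permutation p = 0.000281, adjusted p = 0.908) and its Spearman rho 0.83 (exact permutation p = 0.00827). Without libraries 4 and 9, the 2 farthest from the median of Col1a1, r was 0.90. For Col3a1, r was 0.95 (exact permutation p = 0.00154, adjusted p = 0.908), rho was 0.57 (exact permutation p = 0.121) and r without those 2 libraries was 0.67. The rank order of Col3a1 therefore followed Col1a1 less closely than its r.

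Nid1 was the basement membrane gene nearest to Col1a1, with r of 0.91 (exact permutation p = 0.000708, adjusted p = 0.908), rho of 0.87 (exact permutation p = 0.00451) and r of 0.66 without libraries 4 and 9. Col4a1 and Col1a1 had r of 0.69 (exact permutation p = 0.0481, adjusted p = 0.908), rho of 0.83 (exact permutation p = 0.00827) and r of 0.81 without them. Loxl1 had r of -0.31 with Col1a1 (exact permutation p = 0.443, adjusted p = 0.916) and rho of -0.27 (exact permutation p = 0.493), and its r was 0.29 without library 9 alone.

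Sparc and Col4a2 were the members closest to Col4a1. For Sparc, r was 0.94 (exact permutation p = 0.000637, adjusted p = 0.925), rho was 0.82 (exact permutation p = 0.0108), and r was 0.87 without libraries 1 and 5, the 2 farthest from the median of Col4a1. For Col4a2, which shares the 22-base start printed above, r was 0.91 (exact permutation p = 0.000719, adjusted p = 0.925), rho was 0.83 (exact permutation p = 0.00827) and r was 0.75 without those 2 libraries. Both stayed above 0.7 on each of these measures, and neither passed the adjusted threshold.

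Leaving out 1 library moved the unadjusted counts. With Col1a1, 7 of 33 members remained under 0.05 without library 5, beside 2.61% of all genes, and 8 without library 9, beside 2.69%. With Col4a1, 3 of 33 were under it without library 5, beside 1.47%, and 7 without library 9, beside 2.70%.

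Outside the list, the genes most like Col1a1 among 7485 candidates with a mean of at least 10 CPM were Fstl1, Rbm5, Sirt1, Rnf169 and Bclaf1, with r from 0.88 to 0.96 over the 9 libraries. Fstl1, a secreted glycoprotein of stromal cells related to Sparc, came first with r of 0.96 (exact permutation p = 0.00149, adjusted p = 0.908) and rho of 0.57 (exact permutation p = 0.121). Those most like Col4a1 were Slc28a2, Zfp366, Cpe, Twf2 and Dnajb5, with r from 0.85 to 0.93 (exact permutation test, adjusted p = 0.925 for each). Without libraries 1 and 5 their r ran from 0.37 for Dnajb5 to 0.84 for Slc28a2. For the 5 genes most like Col1a1, r without libraries 4 and 9 ran from 0.53 for Rbm5 to 0.82 for Fstl1.

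A further 84 matrix genes were listed beside the members, and 72 of them had a mean of at least 1 CPM. At an adjusted p under 0.05, 0 of 72 were called with either anchor. At an unadjusted p under 0.05, 7 of 72 had r above 0 with Col1a1, beside 3.67% of all genes, and 1 had r below 0, beside 1.17%. With Col4a1, 5 of 72 had r above 0, beside 3.52% of all genes, and 1 had r below 0, beside 0.963%. Library 5 was the highest for 19 of the 72, beside 10.9% of all genes, and library 9 the lowest for 12 of the 72, beside 10.2%.

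Of these lists, the other basement membrane genes were nearest to the anchors, with a median r of 0.59 with Col1a1 over 7 genes, and their summed level was 289 to 485 CPM. Lama2, the α2 laminin chain of muscle and nerve basement membranes, had r of 0.81 with Col1a1 (exact permutation p = 0.0372, adjusted p = 0.908), and its level ran from 5.19 through 9.65 to 11.7 CPM. Its rho was 0.38 (exact permutation p = 0.312), and its r was 0.27 without libraries 4 and 9. Nid2, nidogen 2, had r of 0.77 (exact permutation p = 0.00535, adjusted p = 0.908) and rho of 0.60 (exact permutation p = 0.0968). Without libraries 4 and 9 the r of Nid2 was 0.52. Lamb3, a laminin chain of the same list, went the other way, with r of -0.49 with Col1a1 (exact permutation p = 0.178, adjusted p = 0.908). With Col4a1 the r of Lamb3 was -0.69 (exact permutation p = 0.0416, adjusted p = 0.925) and its rho -0.43 (exact permutation p = 0.250).

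The enzymes and chaperones that make collagen had lower r. The 14 genes of that list, which include the prolyl hydroxylases P4ha1 and P4ha2 and the collagen chaperone Serpinh1, had a median r of 0.27 with Col1a1 and 0.34 with Col4a1, and summed to 332 to 574 CPM. Proteases and inhibitors (10 genes, median r of 0.06 with Col1a1, 195.5 to 312 CPM in sum) and TGF-β pathway genes (10 genes, 0.04, 225.5 to 312.5 CPM) lay near the median of all genes. Of the remaining lists, other collagens (7 genes, 66.2 to 106 CPM) had a median r with Col1a1 of 0.43. It was 0.36 for elastic fibre genes (11 genes, 376.5 to 520.5 CPM) and 0.36 for small proteoglycans and others (11 genes, 658 to 974 CPM). For crosslinkers (2 genes, 163 to 199.9 CPM) it was -0.27. Col5a3, a type V chain among the other collagens, had r of 0.43 with Col1a1 (exact permutation p = 0.246, adjusted p = 0.908). Its rho was 0.55 (exact permutation p = 0.133), and its level ran from 18.6 through 26.7 to 59.1 CPM. Mfap2, a microfibril glycoprotein of the elastic fibre list, had the largest r of all 72 genes with Col1a1, 0.83 (exact permutation p = 0.00356, adjusted p = 0.908), with rho of 0.73 (exact permutation p = 0.0311), r of 0.33 without libraries 4 and 9, and a level of only 0.338 through 1.17 to 1.68 CPM.

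Some members share exon sequence with a gene on the opposite strand in GENCODE M21, and the strand setting of the counting is not given. The shared part was 23.2% of the exon bases of Ccn2, 21.3% of Timp3 (with Syn3) and 20.1% of Fbn1, and at most 5.57% for the other genes with an opposite-strand overlap, so these 3 levels may include reads of their partners. Spp1 shared 18.8% of its exon bases with a gene model on its own strand.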

How the data were processed

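RNA sequencing of interscapular brown fat gave 1 table of 9 columns. The authors deposited raw whole-number counts per Ensembl gene. FastQC, STAR, DESeq2 and the build GRCm39 are named in the submitters' processing notes, without versions or roles; no source used here gives the annotation, the strand setting or the counting mode. Symbols came from GENCODE M21 and matched 52083 of 55416 identifiers; the rest held 0.187% of counts.

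Counts were divided by the column sum (CPM). Genes with a mean of at least 1 CPM were tested on log2(CPM + 1) by exact permutation of Pearson and Spearman correlations (numpy 2.4.6, scipy 1.17.1), checked on simulated data. Levels per kilobase used the longest coding transcript of the GENCODE M21 basic set (GRCm38), which may differ from the transcripts counted. Intervals are exact Poisson 95% intervals and cover counting error only. TMM (edgeR 4.0.16) and DESeq2 (1.42.0) scaling were alternatives. Outside the members, genes were named by rule: the 5 with the largest r per anchor, and related matrix genes from the 12 with the largest r to either anchor in either direction. Col5a3 was named outside that rule, as a type V chain that is not a member. Every column of the table was used. The members and lists were chosen with earlier results of these data known. The p-values give how often a reordering of the libraries yields a correlation at least as large in size. No label ties a library to an animal, so the differences between libraries may be technical. With no column tied to a guide, neither a check of the targeted gene nor a comparison of guides was made.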

Additional observations from a re-analysis of the deposited data

Results flagged for a closer look

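Of 35 measures looked at (the 34 genes and the ratio of fibrillar to type IV collagen), 4 had a library that stood apart from the other 8 by Dixon's criterion, which chance meets in about 1 of 20 groups. The groups of libraries mix both guides. Col6a2 was 73.7 CPM in library 5 with the next library at 50.5, Bgn was 69.3 CPM in library 5 with the next at 55.2, and Lamb1 was 191 CPM in library 6 with the next at 138. The ratio of fibrillar to type IV collagen was 0.191 in library 9 with the next at 0.360. Library 9 also held the lowest sum of fibroblast and preadipocyte markers, 605 CPM, and the highest sum of brown adipocyte markers, 10359 CPM. The brown adipocyte list did not move as 1, with r to Col1a1 from -0.45 for Plin1 to 0.47 for Adipoq. Libraries 4 and 8 had fibroblast and preadipocyte sums of 611 and 624 CPM, at ratios of 0.360 and 0.454. The part of these markers in the ratio was not tested.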

How the results depend on the processing

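No paired analysis was possible because no library carries a replicate number or guide. The count of members called at an adjusted p under 0.05 with either anchor stayed at 0 under TMM and DESeq2 scaling, without the CPM minimum, with a pseudocount of 0.1, with Spearman's rho and without each library in turn. At an unadjusted p under 0.05 and a correlation above 0, the count with Col1a1 was 8 by Spearman's rho, beside 2.65% of all genes. It was 7 to 17 without single libraries, beside 2.61% to 4.09%. Under TMM and DESeq2 scaling it was 14 and 13, beside 3.52% and 3.46%. With Col4a1 the count was 9 by Spearman's rho, beside 2.24%, and 3 to 11 without single libraries, beside 1.47% to 4.6%. Under TMM and DESeq2 scaling the count with Col4a1 was 14 and 13, beside 4.78% and 4.83%. The count of members with a 2-fold range was 13 to 21 of 34 without single libraries, beside 29.3% to 30.9% of all genes. The highest over the lowest fibrillar to type IV ratio was then 1.29 to 2.43. Without single libraries, r of Loxl1 ran from -0.58 to 0.29 with Col1a1 and from -0.35 to 0.14 with Col4a1; it was above 0 without library 9 (0.29 and 0.081) and, with Col4a1, without library 5 (0.14). TMM and DESeq2 scaling moved library 4 most, by 0.16 on the log2 scale, and left 24 and 25 members highest in library 5 and 25 and 24 lowest in library 9, a check chosen after seeing the data. The causes were not tested. Depth limits Timp1, Spp1, Thbs1 and Tnc, which had under 20 counts in their lowest library.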

Other observations

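Other leukocyte markers (1 of 7 genes with a mean of at least 1 CPM) summed to 2.76 to 13.4 CPM and proliferation markers (1 of 4) to 0.677 to 7.37 CPM, both highest in library 8, where the macrophage markers were also highest at 119 CPM. Schwann cell markers (5 of 5) summed to 95.4 to 139 CPM, blood markers (5 of 5) to 237 to 458 CPM and mesothelial markers (1 of 4) to 3.43 to 9.69 CPM. The mesothelial sum was almost all Lrrn4, at 3.43 to 9.63 CPM. Of the same list, Msln and Upk3b were at most 0.0598 and 0.0585 CPM, and Wt1 had 0 counts in all 9 libraries. The sum therefore describes Lrrn4 rather than the cell type. Library 5 held the lowest value of that sum and library 9 the lowest proliferation and leukocyte sums. Spp1, which is made by activated macrophages among other cells, was highest in library 2 rather than in library 8. It had 9 counts in library 2 and 3 in library 8, too few to rank the libraries.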
